A study of Rattus norvegicus with 8 samples.

Results

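rno-miR-592 and rno-miR-326-3p are mature rat microRNAs (miRNAs) that were close to the detection limit in untreated bone marrow mesenchymal stem cells and were counted in every library of dexamethasone-treated cells. They were taken by name, as every listed form of miR-592 and miR-326, with or without an arm suffix, and these 2 rows of the 487 in the deposited table matched. The names themselves were picked by their counts, low in control and high after dexamethasone, so the contrast between the groups is given below as a description, with no test. The cells were rat bone marrow mesenchymal stem cells (BMSCs), adherent marrow stromal cells that can form bone, cartilage and fat. Dexamethasone is a synthetic glucocorticoid that acts through the glucocorticoid receptor. The study set 4 control libraries against 4 libraries of cells given 10 µM dexamethasone for 48 h. The labels used here give no strain, age, sex or passage of the source, no vehicle for the control, and no word on whether the replicates were separate cultures, so any p-value below measures the spread between these samples, which may be technical.

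A miRNA is cut from a hairpin precursor and guides Argonaute proteins to transcripts that pair with its seed, bases 2 to 8 from the 5′ end, lowering their translation or stability. Many miRNAs lie in introns of protein-coding genes and can be made from the host transcript or from a start site of their own. miR-592 lies in Grm8, which encodes metabotropic glutamate receptor 8 of neurons, and is best known from brain. miR-326 lies in Arrb1, which encodes beta-arrestin 1, an adaptor of G protein-coupled receptors. It is known in mice for promoting Th17 helper T cells through Ets1 and, in cerebellar progenitors, for acting on Smoothened, the signal transducer of the Hedgehog pathway, together with miR-125b and miR-324-5p.

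The mature sequences are shown because the seed decides which other miRNAs could share targets with these miRNAs. They come from RefSeq on build GRCr8, are written 5′ to 3′ and have the seed in capitals. The third is rno-miR-330-5p, the other listed miRNA with the miR-326-3p seed.
rno-miR-592: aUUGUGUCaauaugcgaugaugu
rno-miR-326-3p: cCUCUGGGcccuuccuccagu
rno-miR-330-5p: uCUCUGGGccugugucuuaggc

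The precursors are shown to place each counted arm in its hairpin. Capitals mark the mature miRNA within the RefSeq hairpin.
Mir592 hairpin, chromosome 4, minus strand: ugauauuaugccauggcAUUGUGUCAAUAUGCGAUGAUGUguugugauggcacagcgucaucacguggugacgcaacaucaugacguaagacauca
Mir326 hairpin, chromosome 1, plus strand: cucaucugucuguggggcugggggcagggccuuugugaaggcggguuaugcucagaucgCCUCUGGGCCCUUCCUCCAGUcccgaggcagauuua

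The 2 miRNAs had little sequence in common. rno-miR-592 is 23 bases long with 34.8% G or C and sits in the 5′ arm of its hairpin, at bases 18 to 40 of 96. rno-miR-326-3p is 21 bases long with 66.7% G or C and sits in the 3′ arm, at bases 60 to 80 of 95. Of the 487 listed miRNAs, 443 had a sequence in the RefSeq table, and their median G and C content was 47.8%. Only 39 of the 443 were as low in G and C as rno-miR-592 or lower, and 24 were as high as rno-miR-326-3p or higher, so the pair stood towards opposite ends in base composition. Their seeds, UUGUGUC and CUCUGGG, pair with the sites GACACAA and CCCAGAG.

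In RefSeq, Mir592 and Grm8 are on the same strand, and each host gene holds 1 annotated miRNA gene, so no neighbour from the same host could be set beside either miRNA. The opposite arm, rno-miR-326-5p, was not among the listed miRNAs. Similar miRNAs can share reads, so the nearest mature sequences in the RefSeq table were looked up. The nearest to rno-miR-326-3p by edit distance was rno-miR-331-3p, 8 changes away, and the longest run of bases it shared with another miRNA was 9, with rno-miR-330-5p. For rno-miR-592 the nearest sequences were 9 changes away, among them rno-miR-181c-5p, and the longest shared run was 9 bases, with rno-miR-3561-5p.

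Library totals ran from 1835256 to 2639007 counts in control and from 1377881 to 1521505 after dexamethasone, so the treated libraries were all the shallower ones. A count of 0 allows up to 3 counts, which was 1.14 to 1.63 CPM (counts scaled to a library total of 1000000) in control and 1.97 to 2.18 CPM in treated libraries. These limits and all intervals below cover counting error only, as nothing in the labels speaks of molecular identifiers. Mesenchymal marker miRNAs were abundant in both groups, with a summed level of 196077 to 208348 CPM in control and 227198 to 256139 CPM in treated libraries for 7 of 7 listed markers. At an edgeR adjusted p below 0.05, 3 of these 7 were higher and 1 was lower after dexamethasone. Over the whole table, 61 of 245 tested miRNAs were higher and 52 lower. Markers of leukocytes and red cells were scarce, and their sum, like the mesenchymal sum, was higher in every treated library than in every control. Over the 5 of 6 found it was 36.4 to 46.8 CPM in control and 50.4 to 68.2 CPM after dexamethasone. rno-miR-451-5p, the red cell miRNA, had 1 count over the controls and 2 over the treated libraries. The myeloid miRNA rno-miR-223-3p had 9, 2, 8 and 0 counts in control and 5, 6, 12 and 8 counts after dexamethasone. Its level was 2.16 ± 2.06 CPM in control and 5.41 ± 2.26 CPM in the dexamethasone libraries (SD over 4 libraries), and it was too scarce to test. The part of these cells in the results below was not tested. The sum of the 4 of 6 neural markers found was 457 to 508 CPM in control and 446 to 533 CPM in treated libraries, and that of 6 of 6 epithelial markers was 2.25 to 6.81 CPM and 2.81 to 8.54 CPM.

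rno-miR-592 was counted 2, 0, 2 and 1 times in control replicates 1 to 4 and 13, 19, 12 and 10 times in dexamethasone replicates 1 to 4. All 4 controls were thus below the limit of 3 counts and all 4 treated libraries were well above it. As levels these counts were 0.758, 0, 1.09 and 0.449 CPM in control and 8.97, 12.5, 8.44 and 7.26 CPM after dexamethasone. The mean was 0.574 ± 0.464 CPM in control and 9.29 ± 2.25 CPM in the dexamethasone libraries (SD over 4 libraries each), a difference in level of 8.72 CPM. The lowest treated library was 6.66-fold above the highest control. Counting error was wide for single libraries, since the exact 95% interval (Clopper-Pearson) reached up to 3.94 CPM in control replicate 3 and down to 3.48 CPM in dexamethasone replicate 4.

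Pooled over libraries, rno-miR-592 had 5 counts of 9047779 in control and 54 of 5769408 after dexamethasone. These pooled levels were 0.553 CPM (exact 95% interval 0.179 to 1.29) and 9.36 CPM (7.03 to 12.2). Their ratio was 16.9, with an exact 95% counting interval of 6.83 to 54.3. The pair was picked for this contrast, so the interval is no test and the ratio may be too high. Scaled to the depth of the treated libraries, the 5 control counts correspond to 3.19 counts. The control count of 5 is what makes the fold so uncertain, while by counting error alone the treated level was known to within about 3 CPM.

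rno-miR-326-3p was counted 2, 5, 3 and 2 times in control replicates 1 to 4 and 16, 24, 21 and 21 times in dexamethasone replicates 1 to 4. It was less clearly absent from controls than rno-miR-592, as it was found in all 4, and control replicate 2 passed the limit of 3 counts. As levels these were 0.758, 2.13, 1.63 and 0.899 CPM in control and 11.0, 15.8, 14.8 and 15.2 CPM after dexamethasone. The mean was 1.36 ± 0.643 CPM in control and 14.2 ± 2.15 CPM in the dexamethasone libraries (SD over 4 libraries each), a difference in level of 12.9 CPM. The lowest treated library was 5.19-fold above the highest control. Here the single-library intervals were apart as well, with an upper bound of at most 4.97 CPM among controls and a lower bound of at least 6.31 CPM among treated libraries.

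Pooled over libraries, rno-miR-326-3p had 12 counts in control and 82 after dexamethasone, or 1.33 CPM (exact 95% interval 0.685 to 2.32) and 14.2 CPM (11.3 to 17.6). Their ratio was 10.7, with an exact 95% counting interval of 5.82 to 21.6. The choice by this contrast applies here too, so this interval is no test and the ratio may be too high. Scaled to the depth of the treated libraries, the 12 control counts correspond to 7.65 counts. The intervals of the ratio of the 2 miRNAs overlap widely, so these counts do not show which of them had the larger fold.

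**Figure D1:**
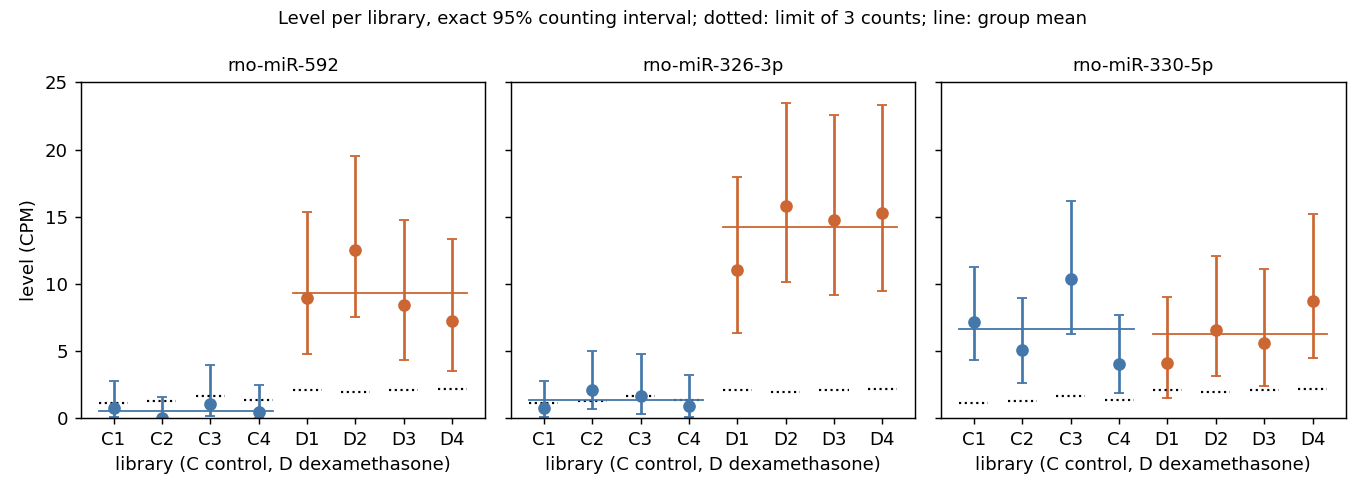
Level in CPM of rno-miR-592, rno-miR-326-3p and the seed relative rno-miR-330-5p in each control (C) and dexamethasone (D) library, with exact 95% counting intervals, the limit of 3 counts as dotted lines and group means as solid lines. The treated libraries of the first 2 miRNAs lie above all controls (7.26 to 12.5 against at most 1.09 CPM, and 11.0 to 15.8 against at most 2.13 CPM), while those of rno-miR-330-5p overlap them.

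For both miRNAs all 4 treated libraries lay above all 4 controls, a pattern that 62 of the 487 listed miRNAs (12.7%) had. Since this same contrast chose the pair, nothing is read from it. The spread within a group came out no larger than counting alone gives, but counts this small could hardly show an added spread. The chi-square per degree of freedom among the treated libraries was 0.797 for rno-miR-592 and 0.473 for rno-miR-326-3p, and among controls 0.833 and 0.741, where 1 is the spread of pure counting. The coefficient of variation of the treated levels was 24.2% and 15.1%, against 27.8% and 22.3% from counting error. Taken over many miRNAs, replicate pairs of these libraries differed by more than counting (chi-square per degree of freedom 8.90 to 59.6). A spread beyond counting in the pair is therefore not excluded.

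The proportion of the pair varied between the treated libraries, and counts this small cannot show whether it was kept. There were 1.23, 1.26, 1.75 and 2.1 counts of rno-miR-326-3p per count of rno-miR-592 in dexamethasone replicates 1 to 4. Both were highest in dexamethasone replicate 2, while the lowest library was replicate 4 for rno-miR-592 and replicate 1 for rno-miR-326-3p. Even there they remained minor species, and together they made up 0.00200 to 0.00283% of the counts of a treated library. Ranked by count, rno-miR-592 was between 199th and 240th of the listed miRNAs in treated libraries and between 315th and 385th in controls. rno-miR-326-3p was between 187th and 205th in treated libraries and between 290th and 334th in controls. In bulk RNA, a change in the share of cells that make a miRNA and a change in its amount per cell cannot be told apart.

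Most miRNAs with as few control counts stayed as low after dexamethasone. Besides this pair, 43 miRNAs had 5 to 12 counts over the 4 control libraries. Their treated counts ran from 1 to 27 with a median of 5, against 54 and 82 for rno-miR-592 and rno-miR-326-3p. The highest of them, the muscle miRNA rno-miR-133a-3p, had 3, 3, 4 and 1 counts in control and 6, 9, 5 and 7 counts after dexamethasone. It was also the only one of the 43 with all 4 treated libraries above all 4 controls. The pooled level was higher after dexamethasone in 19 of the 43, and these comparisons, too, are descriptions.

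**Figure D2:**
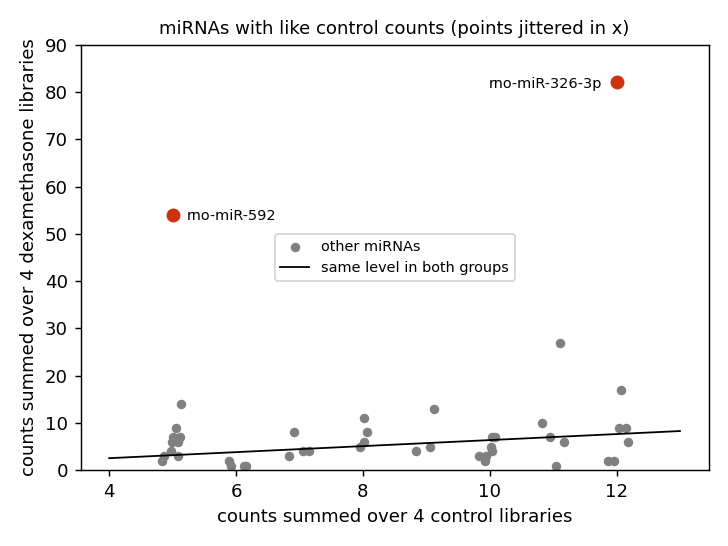
Counts summed over the 4 dexamethasone libraries against counts summed over the 4 control libraries, for the miRNAs with 5 to 12 control counts. The line marks equal levels given the library totals. rno-miR-592 at 54 and rno-miR-326-3p at 82 treated counts lie apart from the 43 others, which reach 27.

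Seen from the treated side, low control levels were uncommon, though the place of the pair follows from how it was chosen. Of 75 miRNAs with a treated mean of 5 to 20 CPM, rno-miR-592 had the lowest control mean and rno-miR-326-3p the third lowest. The control mean of the 73 others ran from 1.33 to 33.6 CPM with a median of 11.0 CPM. Only 3 of the 73, named after their values were seen, were below 2 CPM in control. Both arms of miR-1247 were among them, rno-miR-1247-3p with a mean of 1.33 CPM in control and 8.22 CPM after dexamethasone, and rno-miR-1247-5p with 1.65 and 7.38 CPM. The other was rno-miR-204-5p, an miRNA known for repressing the bone regulator Runx2, with 1.82 and 5.42 CPM.

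On a scale of log2(CPM + 1), which shrinks the differences of scarce miRNAs, the difference between group means was 2.71 for rno-miR-592 and 2.69 for rno-miR-326-3p. These were the 2 largest among 251 miRNAs with a treated mean of at least 5 CPM, which follows from how they were chosen, and rno-miR-672-5p came next at 2.30. The authors' deposited table lists log2 fold changes of 2.69 and 2.66 for the pair, on the same scale but from group means rounded to 1 decimal.

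**Figure D3:**
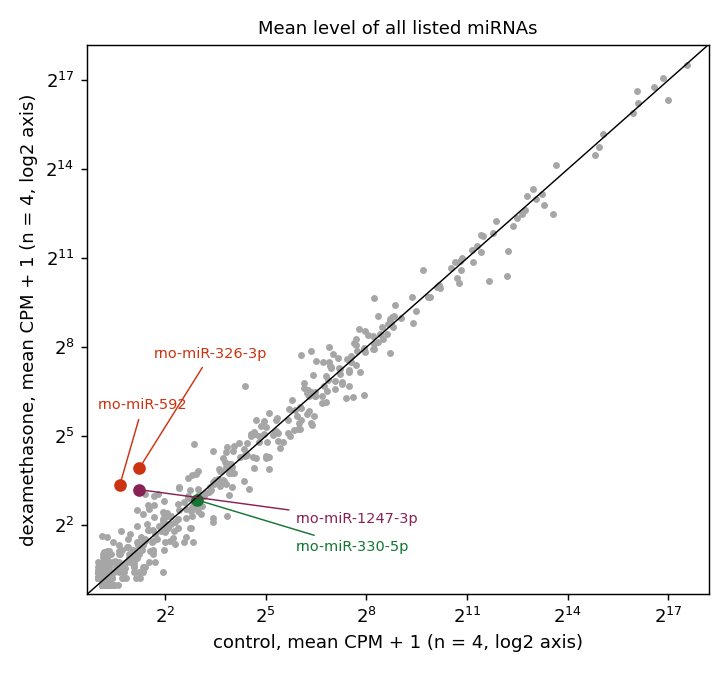
Mean level in the dexamethasone libraries against mean level in the control libraries (CPM + 1, log2 axes, n = 4 each) for all 487 listed miRNAs, with the diagonal of equal levels. rno-miR-592 (0.574 and 9.29 CPM) and rno-miR-326-3p (1.36 and 14.2 CPM) lie above the cloud at the low end, rno-miR-1247-3p (1.33 and 8.22 CPM) is beside them, and rno-miR-330-5p is on the diagonal.

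A rule of presence and absence picked other miRNAs, all of them rarer. With at most 3 counts over the 4 controls and at least 1 count in every treated library, 4 of the 487 qualified, and neither rno-miR-592 nor rno-miR-326-3p did, having 5 and 12 control counts. rno-miR-218a-2-3p had 1 control count and 3, 1, 2 and 6 treated counts. rno-miR-215 had 3 control counts and 2, 4, 2 and 2 treated counts, rno-miR-421-3p had 2 and then 3, 2, 1 and 1, and rno-miR-101b-5p had 0 and then 1 in each treated library. Single treated counts were at most 3, apart from 4 in one rno-miR-215 library and 6 in one rno-miR-218a-2-3p library.

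The mirror pattern, at most 3 counts over the treated libraries and at least 1 in every control, was met by 12 miRNAs, which is read with the greater depth of the controls in view. The best counted was rno-miR-219b, with 8, 6, 5 and 7 counts in control and 1, 0, 1 and 0 after dexamethasone. Next came rno-miR-1839-3p with 14 control and 2 treated counts, rno-miR-466c-5p with 14 and 3, rno-miR-6319 with 13 and 1, rno-miR-485-5p with 12 and 2, and rno-let-7a-2-3p with 11 and 1. rno-miR-1839-3p owed 10 of its 14 control counts to control replicate 2. rno-miR-130b-3p, rno-miR-665 and rno-miR-879-3p followed with 10 control counts each and 3, 2 and 3 treated counts, and the 3 others had 5 or 6 control counts. A rule set on levels after the data were seen, with a mean below 2 CPM in one group and at least 5 CPM in every library of the other, gave rno-miR-592, rno-miR-326-3p and rno-miR-1247-3p as near absent in control. In the other direction it gave only rno-miR-702-5p, with 17, 14, 12 and 12 counts in control and 4, 5, 1 and 0 after dexamethasone.

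The miRNAs most like the pair in level were each other and 3 more. Likeness was measured as the Euclidean distance over the 8 libraries on log2(CPM + 1). rno-miR-326-3p was the nearest to rno-miR-592 and the reverse, at a distance of 2.16. For rno-miR-592 the next were rno-miR-133a-3p at 2.24 and rno-miR-181c-5p at 2.42. For rno-miR-326-3p they were rno-miR-181c-5p at 2.39 and rno-miR-1247-3p at 2.40. rno-miR-181c-5p, of a family known from T cell development, had 8, 4, 6 and 4 counts in control and 12, 14, 9 and 8 counts after dexamethasone, or 2.45 ± 0.815 and 7.41 ± 1.60 CPM (SD over 4 libraries). rno-miR-1247-3p had 6, 4, 0 and 3 counts in control and 11, 8, 13 and 15 counts after dexamethasone. The treated levels of rno-miR-181c-5p and rno-miR-1247-3p reached into the range of rno-miR-592, and in both miRNAs every treated library lay above every control. Nearness to the pair over these same libraries picked them, so nothing is read from that pattern.

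**Figure D4:**
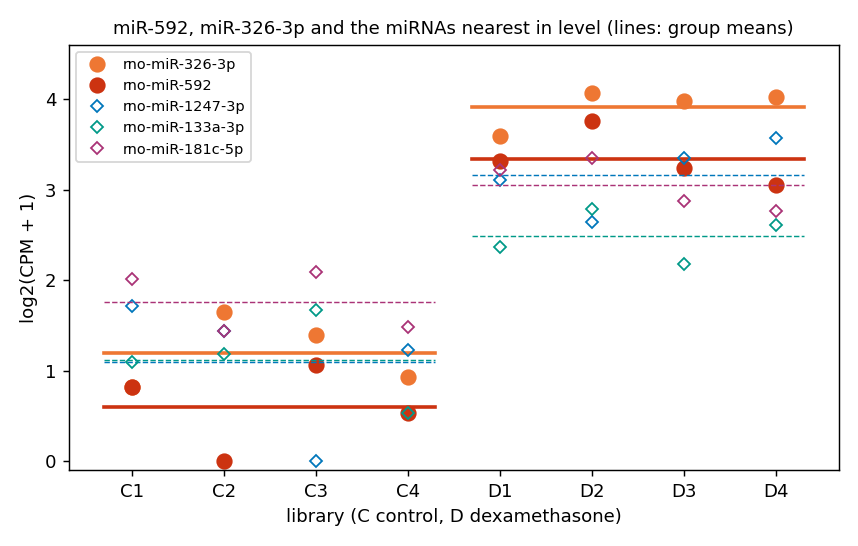
Level as log2(CPM + 1) in each control (C) and dexamethasone (D) library of rno-miR-592 and rno-miR-326-3p (filled points) and of the 3 miRNAs nearest to them over the 8 libraries (open diamonds), with group means as lines. In control replicate 1 the filled points coincide at 2 counts each. In dexamethasone libraries rno-miR-326-3p is above the other 4 throughout.

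The seed relative of rno-miR-326-3p did not share its pattern. rno-miR-330-5p, the only other miRNA in the RefSeq table with the seed CUCUGGG, shown above, had 19, 12, 19 and 9 counts in control and 6, 10, 8 and 12 counts after dexamethasone. Its level was 6.68 ± 2.78 CPM in control and 6.26 ± 1.91 CPM in the dexamethasone libraries (SD over 4 libraries), and the groups overlapped. The log2 fold change was -0.05 ± 0.36 (SE), and it did not pass the edgeR quasi-likelihood test (Benjamini-Hochberg adjusted p = 0.935). The 95% interval around it, taken as normal, ran from -0.75 to 0.66, so these counts do not settle whether there was a change within that range. With the same seed, rno-miR-330-5p was the more abundant of the pair in every control library. After dexamethasone, rno-miR-326-3p was the more abundant in every library. The opposite arm, rno-miR-330-3p, had 1 count over the controls and 5 over the treated libraries. The seed of rno-miR-592 was shared with no other mature miRNA in the RefSeq table.

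Over the whole table, 245 miRNAs were abundant enough to test. Of these, 61 (24.9%) were higher and 52 (21.2%) were lower after dexamethasone at an edgeR adjusted p below 0.05, and 41 were higher and 71 lower under upper quartile scaling. Under it the median log2 fold change of all tested miRNAs was -0.15. The lists that follow were read against these shares, without rno-miR-592 and rno-miR-326-3p.

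Of the miRNAs that act on Smoothened alongside miR-326 in mouse cerebellar progenitors, 1 of 2 tested rose and 0 fell. rno-miR-125b-5p, one of the most abundant miRNAs of these cells, went from 117387 ± 7742 to 137820 ± 6991 CPM (SD over 4 libraries, log2 fold change 0.26 ± 0.06, SE, edgeR quasi-likelihood adjusted p = 0.00329). That call was lost with upper quartile scaling (log2 fold change 0.11, edgeR quasi-likelihood adjusted p = 0.231). rno-miR-324-5p was at 38.9 ± 3.40 CPM in control and 35.0 ± 2.57 CPM in the dexamethasone libraries and did not pass (SD over 4 libraries, log2 fold change -0.13 ± 0.13, SE, edgeR quasi-likelihood adjusted p = 0.463). The level of rno-miR-125b-5p was thus orders of magnitude above the rest of the trio. The scarcest in every library was rno-miR-326-3p, at a mean of 1.36 CPM in control and 14.2 CPM after dexamethasone.

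Of 21 listed arms of neural miRNAs, 9 were tested, 1 rose and 5 fell, and their median log2 fold change was -0.54, against 0.00 over all tested. Of the 5 that fell, 4 were the arms of miR-132 and miR-212, a pair driven by CREB in neurons and not confined to them. Among the 5 other tested arms, split off after the values were seen, 1 rose and 1 fell, with a median log2 fold change of 0.23. rno-miR-132-3p fell to 1195 ± 313 CPM from a control level of 3247 ± 181 CPM (SD over 4 libraries, edgeR quasi-likelihood adjusted p = 7.20e-06) and the opposite arm, rno-miR-132-5p, from 241 ± 19.6 to 82.9 ± 12.4 CPM (edgeR quasi-likelihood adjusted p = 2.68e-07). The fifth to fall was rno-miR-129-5p, a brain miRNA, at -0.54 ± 0.12 (log2 fold change, SE, edgeR quasi-likelihood adjusted p = 0.00300). rno-miR-218a-5p, known from motor neurons and from osteoblasts, rose from 69.5 ± 9.98 to 111 ± 24.3 CPM (SD over 4 libraries, log2 fold change 0.71 ± 0.15, SE, edgeR quasi-likelihood adjusted p = 0.00194). Its star arm rno-miR-218a-2-3p, 1 of the 4 near absent in control, was too scarce to test here. Without the filter on low counts it passed (edgeR quasi-likelihood adjusted p = 0.00968). The near absent rule had picked it by this same contrast, so nothing is read from that pass.

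rno-miR-9a-5p, of neural progenitors, did not pass at 0.23 ± 0.25 on the log2 scale (SE, edgeR quasi-likelihood adjusted p = 0.513). The brain miRNAs rno-miR-128-3p and rno-miR-7a-5p did not pass; their values were 0.23 ± 0.10 and -0.18 ± 0.10 on the log2 scale (SE, edgeR quasi-likelihood adjusted p = 0.0781 and 0.151). Without dexamethasone replicate 4, rno-miR-128-3p was higher and rno-miR-128-1-5p lower (edgeR quasi-likelihood adjusted p = 0.00585 and 0.0170). rno-miR-7a-5p was lower with upper quartile scaling (edgeR quasi-likelihood adjusted p = 0.0155) and without dexamethasone replicate 1 (0.0468).

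Among leukocyte miRNAs, 3 of 8 listed arms were tested, 2 rose and 0 fell. rno-miR-155-5p, an miRNA of activated lymphocytes and macrophages, went from 413 ± 16.8 to 498 ± 20.0 CPM (SD over 4 libraries, log2 fold change 0.30 ± 0.07, SE, edgeR quasi-likelihood adjusted p = 0.00426). Its call was lost with upper quartile scaling (log2 fold change 0.14, edgeR quasi-likelihood adjusted p = 0.172). The pan-leukocyte rno-miR-142-3p went from 27.8 ± 1.26 to 39.8 ± 3.78 CPM (SD over 4 libraries, log2 fold change 0.54 ± 0.13, SE, edgeR quasi-likelihood adjusted p = 0.00479). rno-miR-150-5p, of mature lymphocytes, was at 11.0 ± 3.74 CPM in control and 10.8 ± 4.06 CPM in the dexamethasone libraries (SD over 4 libraries, edgeR quasi-likelihood adjusted p = 0.958).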

How the data were processed

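miRNA counts of 8 BMSC libraries were used, grouped by sample titles. The submitters' processing notes name Bowtie 1.0 and build mRatBN7.2. How reads were counted or shared between similar miRNAs is not stated there, and the labels name a total RNA library kit. The authors deposited raw counts and CPM (count over column total, checked to within 4.98e-05). The deposited log2 fold change equals the log2 ratio of rounded mean CPM plus 1, the test behind the deposited p-value is not given, and that p-value was not used.

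Levels are CPM. Intervals are exact (scipy 1.17.1), that of a ratio from the binomial share of pooled counts. The test of counts was the quasi-likelihood test of edgeR 4.0.16 under R 4.3.3 (filter by expression, TMM factors 0.944 to 1.02, Benjamini-Hochberg adjustment over 245 miRNAs). The SE is the log2 fold change over the square root of F. The code was tested on simulated data. Replicate pairs differed by more than sampling noise (chi-square per degree of freedom 8.90 to 59.6). Alternatives were RLE, upper quartile and total-count scaling, other filters, DESeq2 1.42.0, a replicate block and leaving out each library.

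Members and lists were chosen with earlier results of these data known. Named are the pair, their arms and seed relatives, the near absent miRNAs (up to 8 each way, more at a tie), the 3 nearest in level, the nearest in sequence and up to 4 per list. Further miRNAs were named from the lists and the comparisons by level, some for their values or for calls that changed. Sequences and host genes come from RefSeq on GRCr8, a build other than that of the reads, and positions are left out.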

Additional observations from a re-analysis of the deposited data

Results flagged for a closer look

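In 12 groups of 4 values looked at (the levels of rno-miR-592, rno-miR-326-3p and rno-miR-330-5p and the summed levels of the neural, leukocyte and Smoothened lists, in each treatment), 1 library lay far from the 3 others. The neural list summed to 4907.9 CPM in control replicate 1 and to 4490.8, 4536.7 and 4518.3 CPM in control replicates 2 to 4. Most of this sum was a single miRNA, rno-miR-132-3p, at 3247 ± 181 CPM in control (SD over 4 libraries). Such a gap is met by chance in about 1 of 20 groups. No library stood apart in this way for rno-miR-592 or rno-miR-326-3p.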

How the results depend on the processing

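The level difference of rno-miR-592, 8.72 CPM, ran from 8.28 to 8.97 CPM over 4 other scalings and from 7.65 to 9.39 CPM without any 1 library. That of rno-miR-326-3p, 12.9 CPM, ran from 12.1 to 13.2 and from 12.3 to 13.9 CPM. All of these moved by less than 1 SD of the treated libraries (2.25 and 2.15 CPM), though some by more than the smaller SD of the controls. The presence rules depended on their thresholds. Leaving out a library makes these rules easier to meet, so their counts could then only stay or rise. The 4 miRNAs near absent in control became 1 with 0 summed counts, 7 with at most 6, 1 with at least 2 counts in every treated library, and 4 to 7 without any 1 library (7 without control replicate 3 or dexamethasone replicate 2). The 12 near absent after dexamethasone became 0, 19, 3 and 13 to 18, and 1 under the rule on CPM added after seeing the data. With upper quartile scaling 1 leukocyte miRNA and 0 Smoothened partners rose, and 2 neural miRNAs rose with no filter or without dexamethasone replicate 4 (1 to 2 without any 1 library); the cause was not tested. rno-miR-330-5p was at -0.25 to 0.09 on the log2 scale without any 1 library, turning to 0.0903 without dexamethasone replicate 1, and passed under no alternative. Without control replicate 1 or 3, or with 10 CPM required in 4 samples, it was too scarce to test. With the replicate block 52 miRNAs were higher and 45 lower, and rno-miR-330-5p was at -0.04 (edgeR quasi-likelihood adjusted p = 0.947). No pairing by replicate number was seen (correlation of deviations -0.21 to 0.08), though 4 libraries per group cannot exclude one. The block changed no call of a listed miRNA. Depth limits the pair, as single counts in control set the fold.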
